A study of Mus musculus with 30 samples.

Results

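The early response transcription factor genes Egr1, Egr2, Egr3 and Egr4, the genes of their co-repressors Nab1 and Nab2, and the orphan nuclear receptor genes Nr4a1, Nr4a2 and Nr4a3 were followed in mouse prefrontal cortex. They were taken by name, 9 genes of the 18240 in the deposited matrix, and all 9 passed the minimum mean of 10 normalized reads that 16824 genes passed. The tissue came from C57BL/6J mice at postnatal day 40 and was profiled by bulk sequencing of poly(A) RNA. The groups were Adnp heterozygous (HT) mice given fluoxetine (4 female and 4 male libraries), HT mice given lithium (3 and 4), HT mice given vehicle (4 and 3) and wild-type (WT) mice given vehicle (4 and 4). Adnp encodes a homeodomain protein that acts on chromatin, and the human gene is known for its mutations in a syndrome with autism. The comparisons ask how the genes differ between HT and WT cortex and how each drug changes them in HT cortex. Every drug-treated mouse was HT, so the effect of either drug in WT mice cannot be read from these groups. The labels give neither the kind of Adnp allele, nor a drug dose, nor the time between the last dose and dissection.

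Egr proteins are zinc finger activators that bind GC-rich sites, and Nr4a proteins are nuclear receptors that act without a known hormone ligand. In cortical neurons both families belong to the immediate early genes, which are transcribed within minutes of synaptic activity or growth factor signals through kinases acting on SRF and CREB. Egr1 is widely used as a mark of recently active neurons and is needed for late phases of plasticity. Egr2 is best known for hindbrain patterning and myelination by Schwann cells, and Egr3 for muscle spindle development and memory. Nab1 and Nab2 bind several Egr proteins and repress their targets, and Nab2 is itself switched on by Egr factors. Nr4a2, also called Nurr1, is required for midbrain dopamine neurons and marks neurons of the claustrum and the deepest cortical layer.

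The libraries held 23771758 to 34307061 reads, and the 9 genes had between 345 reads (Egr2) and 15492 reads (Egr1) in a library. The labels number the replicates and do not tell if they were different mice, and p-values therefore measure the spread between these libraries, which may be technical in part. The summed count of Adnp and Gm20716, an annotated gene that shares its exons, was 3404 to 3887 in the 22 HT libraries and 4226 to 4433 in the 8 WT libraries, without overlap. The 7 markers of excitatory cortical neurons were present in all libraries, with a summed normalized count of 152000 to 219030 under fluoxetine, 137820 to 203990 under lithium, 161830 to 205070 in HT vehicle and 179570 to 214610 in WT vehicle. Markers of neighbouring regions varied between libraries of 1 group. The 16 markers of striatal neurons summed to 12516 to 73583 and the 8 markers of olfactory bulb to 259 to 14236 over all libraries, and 2 striatal markers were at 0 in at least 1 library. In bulk tissue, fewer cells of a type and less RNA per cell cannot be told apart.

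The genes lie on 8 chromosomes, and the positions are those of GENCODE M21 on GRCm38. The annotation places Egr2 (ENSMUSG00000037868) on chromosome 10 from 67535475 to 67542188 on the plus strand and Nab2 (ENSMUSG00000025402) on chromosome 10 from 127660918 to 127668568 on the minus strand. It places Egr3 (ENSMUSG00000033730) on chromosome 14 from 70077203 to 70082614 on the plus strand, and Egr4 (ENSMUSG00000071341) on chromosome 6 from 85511121 to 85513589 on the minus strand. The co-repressor gene Nab1 (ENSMUSG00000002881) on chromosome 1 from 52457294 to 52500679 on the minus strand is the longest of the 9. The receptor genes are Nr4a1 (ENSMUSG00000023034) on chromosome 15 from 101254269 to 101274795 on the plus strand, Nr4a2 (ENSMUSG00000026826) on chromosome 2 from 57106830 to 57124003 on the minus strand and Nr4a3 (ENSMUSG00000028341) on chromosome 4 from 48045153 to 48086447 on the plus strand. Egr1 (ENSMUSG00000038418) lies on chromosome 18.

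Per kilobase of annotated exon, Egr1 was the highest of the 9 genes and Egr2 the lowest in WT vehicle cortex. Egr1 had 2069.9 ± 218 normalized reads per kilobase (SD, n = 8 WT vehicle libraries). Nr4a1 followed at 1033 ± 98 and Egr3 at 969 ± 53.4, and the ranges of these 2 genes overlapped. Nab2 (473 ± 35.3) and Egr4 (452 ± 47.8) formed the next pair, with overlapping ranges. Nr4a2 (209 ± 86.8), Nr4a3 (205 ± 51.5) and Nab1 (181 ± 9.71) did not differ beyond their ranges. Egr2 had 121 ± 16, below every Nab1 value, although its range of 98.6 to 145 overlapped those of Nr4a2 and Nr4a3. In lithium-treated HT libraries Egr2 averaged 216 ± 70.2 per kilobase, and there it was no longer the lowest mean of the 9 genes, since Nab1 averaged 189 ± 14.7. Nab2 shares exon bases on the opposite strand with Stat6, Nemp1 and the antisense gene Gm16229, so its count is uncertain to the extent that strand was not used in counting.

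The promoters of 3 genes that rose under a drug are shown with that of Nab1, whose level stayed near that of vehicle under both drugs. Each run is 300 bases of RefSeq sequence (build GRCm38.p6), 250 before and 50 after an annotated start, written 5′ to 3′ on the gene's strand. Of the 9 genes, 7 had such a window. Egr2 had 5, from alternative starts, and the 1 printed was chosen after the matches were seen. The printed starts of Egr2 and Nr4a1 lie inside the spans given for these genes. Capitals mark the TGACG core of the cAMP response element bound by CREB, the CArG box bound by SRF, and the Egr site GCGNGGGCG, each searched on both strands, so that a core on the other strand reads CGTCA.
Egr2, chr10:67537619-67537918, plus strand: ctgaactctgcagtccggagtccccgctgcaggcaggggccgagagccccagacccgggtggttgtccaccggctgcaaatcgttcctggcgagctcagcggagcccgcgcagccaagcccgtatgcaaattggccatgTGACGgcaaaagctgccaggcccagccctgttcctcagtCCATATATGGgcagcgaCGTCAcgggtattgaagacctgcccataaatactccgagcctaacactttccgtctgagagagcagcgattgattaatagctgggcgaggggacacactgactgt
Egr4, chr6:85513540-85513839, minus strand: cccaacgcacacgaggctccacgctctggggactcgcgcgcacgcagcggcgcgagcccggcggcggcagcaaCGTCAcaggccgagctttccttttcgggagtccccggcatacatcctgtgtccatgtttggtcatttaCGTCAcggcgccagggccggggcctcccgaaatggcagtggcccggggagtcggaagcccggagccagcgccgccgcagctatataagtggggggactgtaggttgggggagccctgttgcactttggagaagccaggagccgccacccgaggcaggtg
Nr4a1, chr15:101266596-101266895, plus strand: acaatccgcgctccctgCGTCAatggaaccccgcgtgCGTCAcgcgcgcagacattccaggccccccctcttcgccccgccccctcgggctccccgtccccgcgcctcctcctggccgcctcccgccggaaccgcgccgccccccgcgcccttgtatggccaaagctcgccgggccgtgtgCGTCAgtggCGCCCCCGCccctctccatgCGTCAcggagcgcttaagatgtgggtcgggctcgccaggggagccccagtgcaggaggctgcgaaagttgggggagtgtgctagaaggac
Nab1, chr1:52500399-52500698, minus strand: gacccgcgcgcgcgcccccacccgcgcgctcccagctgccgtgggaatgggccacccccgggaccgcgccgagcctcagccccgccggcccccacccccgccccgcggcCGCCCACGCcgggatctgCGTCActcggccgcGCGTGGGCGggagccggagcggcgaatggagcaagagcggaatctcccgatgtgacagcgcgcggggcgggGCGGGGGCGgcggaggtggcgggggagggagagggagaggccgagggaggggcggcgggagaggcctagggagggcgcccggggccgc
In the Egr2 window a CArG box began at -72 from the start, between TGACG cores at -111 and -55. The Egr4 window held TGACG cores at -177 and -109. In the Nr4a1 window there were 4 TGACG cores, at -233, -213, -69 and -40, and 1 Egr site at -60. The Nab1 window held 3 Egr sites, at -141, -109 and -38, and 1 TGACG core at -123. Of the other Egr2 windows, 1 held no match, 1 held a CArG box and no TGACG core, and 2 that overlap the printed window held the same 3 matches. Among the windows of the other genes, that of Nr4a2 held 4 TGACG cores and 1 Egr site, that of Nr4a3 held 4 TGACG cores, and that of Nab2 held no match. Over 32851 promoter windows of this length, 20.8% held a TGACG core, 1.63% a CArG box and 5.55% an Egr site. The full element TGACGTCA, which contains the core and was found in 1.79% of windows, and the Nr4a monomer site AAAGGTCA, found in 1.51%, were in none of the windows of these genes. A match is a description of letters, not a measured binding site.

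Fluoxetine, a serotonin reuptake inhibitor, went with higher Egr4 and Nr4a1 in HT cortex. These 2 of the 9 genes were called higher than in HT vehicle cortex (limma adjusted p under 0.05), against 0.0357% of all genes tested, 6 of 16824, and no gene was called lower. Egr1, Egr2 and Egr3 had positive log2 fold changes that missed the adjusted threshold, and Nab1, Nab2, Nr4a2 and Nr4a3 were closer to vehicle or more variable. The median log2 fold change of the 9 genes was 0.32 (8 of 9 positive), and that of all genes tested was -0.0016 (48.7% positive).

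Egr4, a zinc finger factor of the Egr family, had normalized counts of 1199, 1493, 1635 and 1433 in females 1 to 4 and 1265, 1504, 1236 and 1322 in males 1 to 4 under fluoxetine. In HT vehicle libraries they were 919.7, 912, 1042 and 1012 in females 1 to 4 and 914, 847 and 1040.2 in males 1 to 3. All 8 fluoxetine libraries lay above all 7 HT vehicle libraries, a separation that 0.0476% of genes tested showed in the higher direction. The means were 1386 ± 154 (SD, n = 8) under fluoxetine and 955 ± 75.9 (SD, n = 7) under vehicle, 0.54 apart on the log2 scale (SE 0.0946, limma adjusted p = 0.0266). Nr4a1, also called Nur77, the member of its family most often followed as an immediate early gene, had counts of 4662, 4380.1, 4996 and 4537 in females 1 to 4 and 5478, 5286, 5022 and 5501 in males 1 to 4 under fluoxetine. In HT vehicle libraries Nr4a1 had 4482, 3682, 4015 and 3442 in females 1 to 4 and 3891, 3407 and 3452 in males 1 to 3. Of the 8 fluoxetine libraries, 7 were above every HT vehicle library, and the overlap came from HT vehicle female 1. Nr4a1 averaged 4983 ± 426 (SD, n = 8) under fluoxetine and 3767 ± 394 (SD, n = 7) under vehicle, 0.41 on the log2 scale (SE 0.0779, limma adjusted p = 0.0416).

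Egr2 had the largest log2 fold change of the 9 genes under fluoxetine, 0.59 (SE 0.136), but its limma adjusted p was 0.291. Its counts were 476, 583, 599 and 599 in females 1 to 4 and 626, 734, 639.8 and 614 in males 1 to 4 under fluoxetine. HT vehicle libraries had 468, 376, 507 and 387 in females 1 to 4 and 406, 342 and 379 in males 1 to 3. Of the 8 fluoxetine libraries 7 exceeded every vehicle library, and fluoxetine female 1 lay within the vehicle range. DESeq2 on the recovered reads (adjusted p = 0.0212) and a limma fit of these 2 conditions alone (adjusted p = 0.00309) called Egr2. Egr1 averaged 11777 ± 1131 (SD, n = 8) under fluoxetine and 9489 ± 674 (SD, n = 7) under vehicle. Its log2 fold change was 0.32 (adjusted p = 0.92 by limma), and 7 of 8 fluoxetine libraries were above every vehicle library. Egr3 averaged 4729 ± 440.4 (SD, n = 8) and 3835 ± 824 (SD, n = 7) in the same order. Its log2 fold change was 0.34 (adjusted p = 1 by limma), and only 1 fluoxetine library exceeded all vehicle libraries. The log2 fold changes of the remaining genes were 0.12 for Nab2, -0.01 for Nab1, 0.06 for Nr4a2 and 0.26 for Nr4a3.

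Both fluoxetine calls were lost when most single libraries were left out. With 1 library left out, Egr4 was called only without fluoxetine female 1, male 1 or male 3 or without HT vehicle female 3 or male 3, and otherwise had an adjusted p of up to 0.164 (without HT vehicle male 2), while Nr4a1 was called only without HT vehicle female 1 (0.0234) and otherwise reached up to 0.204 (without HT vehicle male 2). The log2 fold changes over these omissions were 0.50 to 0.58 for Egr4 and 0.38 to 0.45 for Nr4a1. Beside these results, olfactory bulb markers had a median log2 fold change of 0.36 under fluoxetine (7 of 8 positive, 0 called, sums of 378 to 6842 under fluoxetine and 490.3 to 12280 under vehicle) and striatal markers one of -0.19 (1 of 16 positive, 0 called, sums of 12943 to 73583 under fluoxetine and 13097 to 46088 under vehicle). With both levels as covariates the log2 fold changes were 0.56 for Egr4 (limma adjusted p = 0.015) and 0.41 for Nr4a1 (0.0629).

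**Figure D1:**
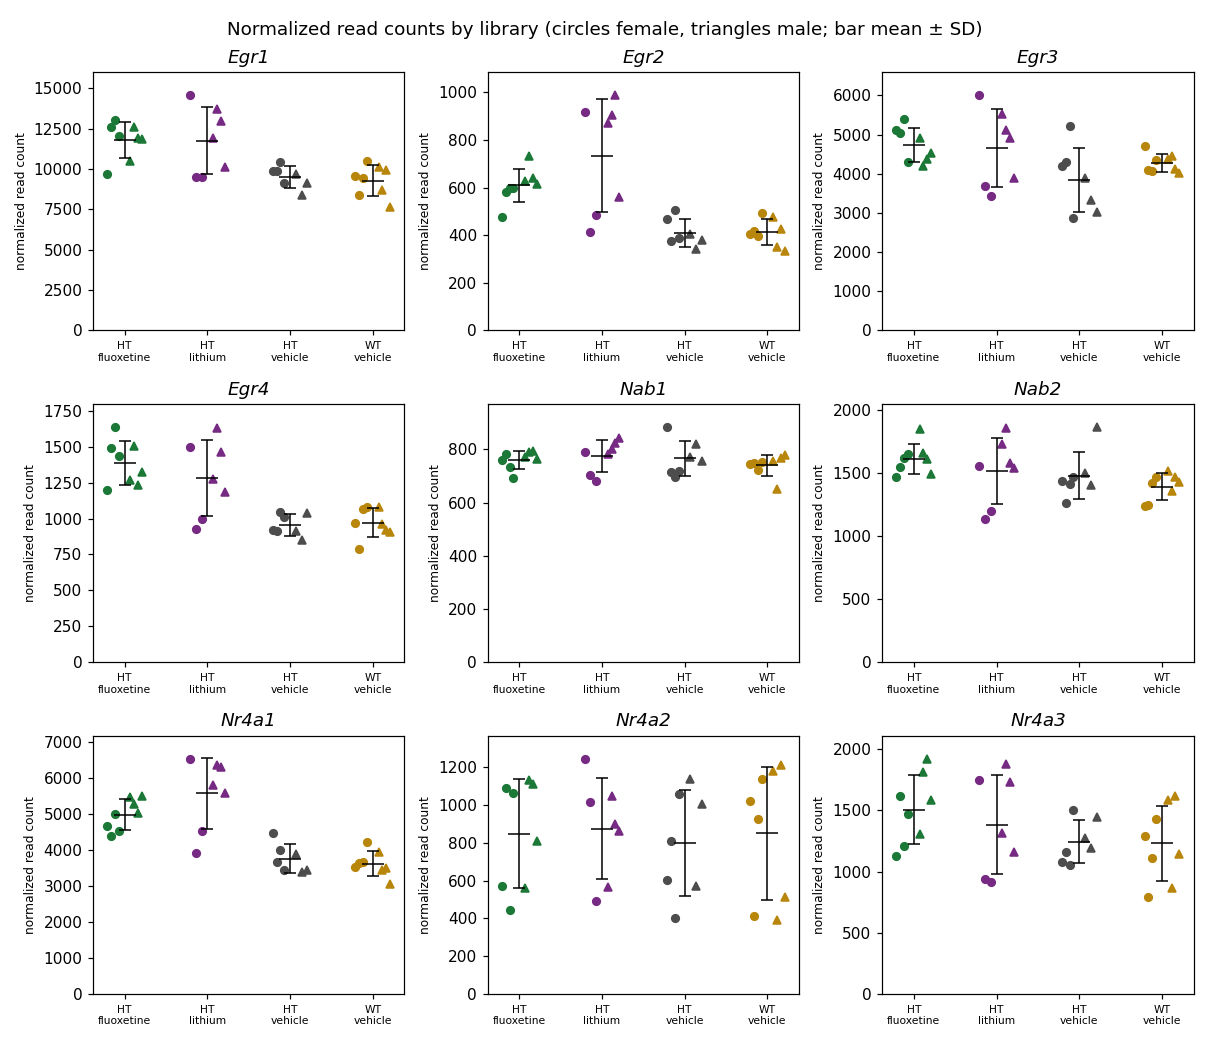
Normalized read counts (vertical axes from 0) of the 9 genes in each of the 30 libraries, by condition; circles are female, triangles male, and bars show the mean and SD over both sexes. Egr4 under fluoxetine (1199 to 1635) lies wholly above HT vehicle (847 to 1042), while Nr4a2 spreads widely in every condition.

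Lithium, a mood stabilizer, went with higher Egr2 and Nr4a1 in HT cortex. These 2 of the 9 genes were called higher than in HT vehicle cortex, against 0.0892% of all genes tested, 15 of 16824, and no gene was called lower. The median log2 fold change of the 9 genes was 0.28 (7 of 9 positive), and that of all genes tested was -0.0040 (47.8% positive). None of the 9 had all lithium libraries above all vehicle libraries (0.0713% of genes tested did), and 2 of the 3 lithium females had Egr levels close to those of vehicle.

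Nr4a1 had normalized counts of 6534, 3919.6 and 4533 in females 1 to 3 and 5808, 6366, 6301 and 5592 in males 1 to 4 under lithium, against the HT vehicle counts given above. Lithium female 2 lay within the vehicle range and the other 6 lithium libraries above it. The means were 5579 ± 996 (SD, n = 7) under lithium and 3767 ± 394 (SD, n = 7) under vehicle, 0.54 apart in log2 (SE 0.0808, limma adjusted p = 0.00156), and leaving out any 1 library kept the call (adjusted p up to 0.0108). Egr2 had counts of 919, 412 and 486 in females 1 to 3 and 871, 905, 987 and 560.0 in males 1 to 4 under lithium. Lithium females 2 and 3 fell within the vehicle range of 342 to 507, and the other 5 lithium libraries lay above it. Egr2 averaged 734 ± 239 (SD, n = 7) under lithium and 409 ± 57.6 (SD, n = 7) under vehicle, 0.76 in log2 (SE 0.142, limma adjusted p = 0.0196).

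Egr4 reached 1500.5, 924 and 996 in females 1 to 3 and 1272, 1628, 1459.8 and 1184 in males 1 to 4 under lithium, and 5 of the 7 libraries exceeded all HT vehicle libraries. The log2 fold change of Egr4 was 0.38 with an SE of 0.0981 (adjusted p = 0.405 by limma), and DESeq2 called it at an adjusted p of 0.0491. Egr1 averaged 11758 ± 2087 (SD, n = 7) under lithium and 9489 ± 674 (SD, n = 7) under vehicle (log2 fold change 0.29, limma adjusted p = 0.712). Egr3 averaged 4650.4 ± 989.5 (SD, n = 7) under lithium and 3835 ± 824 (SD, n = 7) under vehicle (log2 fold change 0.28, limma adjusted p = 0.858). The SD of Egr1, Egr2, Egr3, Egr4, Nab2, Nr4a1 and Nr4a3 was larger under lithium than in any other condition, and that of Nab1 and Nr4a2 was not. The log2 fold changes of the others were -0.02 for Nab2, -0.0001 for Nab1, 0.13 for Nr4a2 and 0.07 for Nr4a3.

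The Egr2 call under lithium was lost without lithium female 1 or male 1, 2 or 3, or without HT vehicle female 2 or 4 or male 2 or 3, with an adjusted p of up to 0.0957 (without HT vehicle male 2), and both calls were lost in a limma fit of the lithium and HT vehicle libraries alone (adjusted p = 0.728 for Egr2 and 0.132 for Nr4a1), with log2 fold changes of 0.76 and 0.54 as before. Markers of neighbouring tissue also differed in level between these libraries. The 8 olfactory bulb markers had a median log2 fold change of 1.18 (8 of 8 positive, 0 called), with sums of 641 to 14236 under lithium and 490.3 to 12280 under vehicle. The 16 striatal markers had a median of -0.63 (0 of 16 positive, 0 called), with sums of 12516 to 30089 under lithium and 13097 to 46088 under vehicle. The 6 meningeal fibroblast markers had a median of 0.44 (6 of 6 positive, 0 called), with sums of 2056 to 5868 under lithium and 1383 to 2726 under vehicle. With the striatal and olfactory bulb levels as covariates the log2 fold changes under lithium were 0.79 for Egr2 (limma adjusted p = 0.0567) and 0.51 for Nr4a1 (0.0107). The part of meningeal tissue was not tested.

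**Figure D2:**
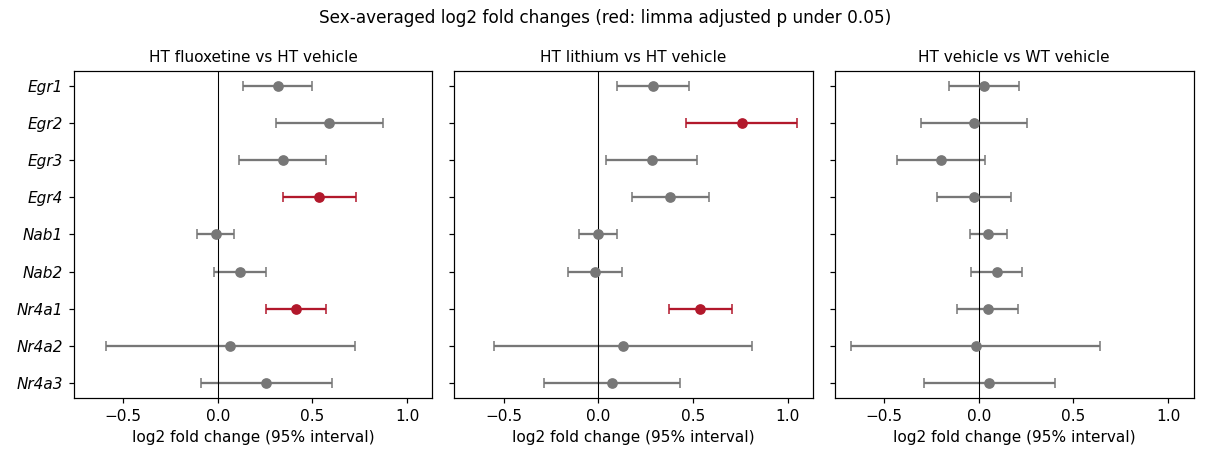
Sex-averaged log2 fold changes (horizontal axes) with 95% intervals for the 9 genes; red marks a limma adjusted p under 0.05 over all genes tested. The Egr genes and Nr4a1 lie to the right of 0 under both drugs (0.28 to 0.76), Nab1 lies at 0 with a short interval, and Nr4a2 has the widest interval in each panel.

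Both drug comparisons share the HT vehicle libraries, so their fold changes are not independent. Set directly against each other, fluoxetine and lithium differed in none of the 9 genes by limma, edgeR or DESeq2, 0 had an unadjusted p under 0.05 (6.86% of all genes did), and 0% of all genes tested were called higher or lower by limma. The log2 difference of fluoxetine from lithium was 0.16 for Egr4 (95% interval -0.04 to 0.35), -0.17 for Egr2 (-0.45 to 0.11) and -0.12 for Nr4a1 (-0.28 to 0.04). These intervals leave room for differences in either direction, so similar action is not shown. Among males alone, the 4 fluoxetine libraries had Nr4a1 counts of 5022 to 5501 and the 4 lithium libraries 5592 to 6366, without overlap, as for 1.38% of genes tested in the lower direction. The 4 female fluoxetine libraries had 4380.1 to 4996, inside the range of 3919.6 to 6534 for the 3 female lithium libraries.

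HT and WT vehicle cortex did not differ in a called way in any of the 9 genes. Limma, edgeR and DESeq2 each called 0 of 9, against 0.731% of all genes tested called by limma in either direction, and 0 of 9 had an unadjusted p under 0.05, against 6.6% of all genes. The Nr4a1 mean was 3767 ± 394 (SD, n = 7) for HT vehicle against 3624 ± 344 (SD, n = 8) for WT vehicle, and the 95% interval of its log2 fold change of 0.05 was -0.11 to 0.21. Egr1 averaged 9489 ± 674 (HT vehicle) and 9282 ± 976 (WT vehicle), with a log2 fold change of 0.03 (-0.15 to 0.21). Egr2 (-0.03, interval -0.31 to 0.26) and Egr4 (-0.02, interval -0.22 to 0.17) were likewise near 0. The lowest unadjusted p was that of Egr3, at 0.0863, with means of 3835 ± 824 (HT vehicle) and 4271 ± 235 (WT vehicle). Its log2 fold change was -0.20 at a limma adjusted p of 0.87. The 3 HT vehicle males, at 3889, 3338 and 3020.2, were below the 4 WT vehicle males at 4014 to 4445, as 2.91% of genes tested were in the lower direction, while the females overlapped. The SD of Egr3 was 824 in HT vehicle and 235 in WT vehicle libraries. The interval of Nr4a2, -0.67 to 0.64, was too wide to show a change of 1.5-fold.

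Against WT vehicle cortex, 4 of the 9 genes were called higher in fluoxetine-treated HT cortex and 3 in lithium-treated HT cortex. Over all genes tested the shares called higher were 1.24% and 1.4% for these comparisons, and they differ from the WT mice by genotype and drug together. Under fluoxetine the called genes were Egr1 (log2 fold change 0.34, limma adjusted p = 0.0352), Egr2 (0.56, 0.0243), Egr4 (0.51, 0.00182) and Nr4a1 (0.46, 0.000614). Under lithium they were Egr2 (0.73, 0.0032), Egr4 (0.36, 0.0477) and Nr4a1 (0.58, 3.3e-05), while Egr1 had a log2 fold change of 0.32 at a limma adjusted p of 0.0612. Egr1 under lithium was called by edgeR (adjusted p = 0.0433) and DESeq2 (0.0133), and by limma with the striatal and olfactory bulb covariates (0.0347) or the claustrum and layer 6b covariate (0.037).

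In WT vehicle libraries Egr4 had 971, 786, 1068 and 1079 in females 1 to 4 and 1078, 962, 923 and 903 in males 1 to 4, and Nr4a1 had 3542, 3633, 3658 and 4215 in females 1 to 4 and 3943, 3448, 3496 and 3057 in males 1 to 4. All 8 fluoxetine libraries exceeded all 8 WT libraries for both genes, as 0.476% of genes tested did in the higher direction. Egr2 had 406, 419, 396 and 492 in females 1 to 4 and 475, 349, 427 and 335 in males 1 to 4 in WT vehicle libraries, and 7 of 8 fluoxetine and 5 of 7 lithium libraries were above all of these. With 1 library left out, Egr4 and Nr4a1 under fluoxetine and Egr2 and Nr4a1 under lithium kept their calls against WT throughout. Egr1 under fluoxetine kept its call only without fluoxetine female 1 or male 1 or WT female 4, male 1 or male 3, and reached an adjusted p of up to 0.0922 otherwise (without WT male 4). Egr2 under fluoxetine lost it without fluoxetine female 2 or 4 or male 2 or WT female 1 or 3 or male 2 or 4 (up to 0.0629), and Egr4 under lithium kept it only without lithium female 2, male 1 or male 4 or WT female 4 or male 1 (otherwise up to 0.144).

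Within the sexes, the drug contrasts of the Egr genes and Nr4a1 were positive in both, and the lithium contrasts were larger in males. Under lithium the male log2 fold change was 1.11 for Egr2 (SE 0.2, limma adjusted p = 0.0158) and 0.75 for Nr4a1 (SE 0.114, adjusted p = 0.00258). These were the 2 of 9 genes called in males, against 0.0773% of genes tested called higher, and 0 of 9 were called in females, where 1 had an unadjusted p under 0.05 (3.55% of all genes) and 0% of genes tested were called higher. EdgeR and DESeq2 also called 0 of 9 in lithium females, each with 2 under an unadjusted 0.05, and in lithium males they called 2 and 3. In lithium females the values were 0.40 for Egr2 and 0.33 for Nr4a1. For Egr1, Egr3 and Egr4 the lithium contrast was 0.16, 0.06 and 0.20 in females and 0.42, 0.50 and 0.56 in males. All 4 lithium males exceeded all 3 vehicle males for Egr1, Egr2, Egr3, Egr4 and Nr4a1, a separation seen in 5.46% of genes tested.

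The difference between the sexes itself was not called for any of the 9 genes by limma, edgeR or DESeq2, in the lithium, fluoxetine or genotype comparison, and limma called 0% of all genes tested in each. For lithium the female minus male difference was -0.71 for Egr2 (unadjusted p = 0.0185, limma adjusted p = 0.477) and -0.42 for Nr4a1 (unadjusted p = 0.0152, adjusted p = 0.477), the only 2 of the 9 genes under an unadjusted 0.05 (10% of all genes tested). The lithium females were 3 libraries, of which female 1 had the highest Egr1, Egr3, Nr4a1 and Nr4a2 counts of the lithium libraries. Lithium females 2 and 3 had the lowest counts of Egr1, Egr2, Egr3, Egr4, Nab1, Nab2, Nr4a1 and Nr4a3 among the lithium libraries. Under fluoxetine the log2 fold change in females and males was 0.56 and 0.51 for Egr4, 0.26 and 0.57 for Nr4a1, and 0.38 and 0.80 for Egr2, and 0 of 9 were called in either sex alone, against 0% of genes tested called higher in females and 0.0178% in males. EdgeR gave the same counts of 0, and DESeq2 called 0 in females and 1 in males. An unadjusted p under 0.05 was found for 4 genes in females and 5 in males, against 3.85% and 4.07% of all genes. Egr4 and Nab2 separated in fluoxetine females, as 0.945% of genes tested did, and Egr1, Egr2, Egr3, Egr4 and Nr4a1 in fluoxetine males, as 3.51% did. For Nab2 this was a near tie, with the lowest fluoxetine female at 1471.1 and the highest HT vehicle female at 1470.99.

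**Figure D3:**
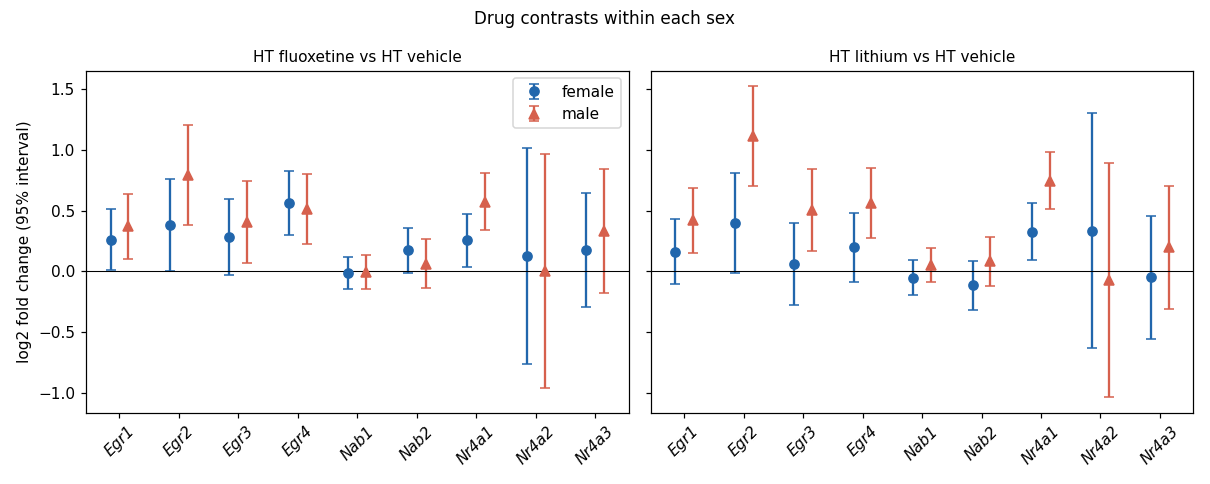
Log2 fold change against HT vehicle (vertical axis) with its 95% interval, for females (circles) and males (triangles) under fluoxetine (left) and lithium (right). The male lithium estimates of Egr2 (1.11) and Nr4a1 (0.75) are the highest of their panel, and the intervals of both sexes overlap for every gene shown.

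Libraries of 1 group that were high in Egr1 were also high in Egr2, Egr4, Nr4a1 and Nr4a3. Correlations were taken over 30 libraries after the mean of each group was subtracted, for 36 pairs of the 9 genes, with p-values from 100000 permutations within groups and Benjamini-Hochberg adjustment over the pairs. Pearson's r was 0.88 for Egr1 with Egr2 (Spearman's rho 0.855, each with permutation p = 1e-05, the smallest possible here, and adjusted p = 0.00018). It was 0.843 for Egr1 with Egr4 (rho 0.797, adjusted p = 0.00072 and 0.00084) and 0.815 for Egr2 with Nr4a1 (rho 0.755, adjusted p = 0.00171 and 0.00306). Without the 2 libraries farthest from the median of the first gene, r was 0.838, 0.769 and 0.762 for these pairs. Egr1 had r of 0.727 with Nr4a1 (rho 0.676, adjusted permutation p = 0.00436 and 0.00535, r 0.683 without 2 libraries). With Nr4a3 it had 0.746 (rho 0.73, adjusted permutation p = 0.00436 and 0.0041, r 0.684 without 2 libraries). Nr4a3 also had r of 0.698 with Egr4 and 0.64 with Egr2, but 0.395 with Nr4a1 (adjusted permutation p = 0.263). The co-repressor gene Nab2 followed Egr4 (r 0.716, rho 0.668, adjusted p = 0.00436 and 0.00666, r 0.632 without 2 libraries). Nab1 passed in none of its 8 pairs, with r of 0.0356 to 0.374. Egr3 passed by both measures with Nr4a1 (r 0.674, rho 0.589, adjusted permutation p = 0.0251 and 0.0182, r 0.501 without 2 libraries). With Egr1 and Egr2 it passed for r only (0.576 and 0.639), and with Egr4 its r was 0.393. Egr1 with Nr4a2 passed by both (r 0.503, rho 0.574, adjusted permutation p = 0.0406 and 0.0182, r 0.469 without 2 libraries). In all, 18 of the 36 pairs had an adjusted permutation p under 0.05 for r, and 14 for both measures.

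**Figure D4:**
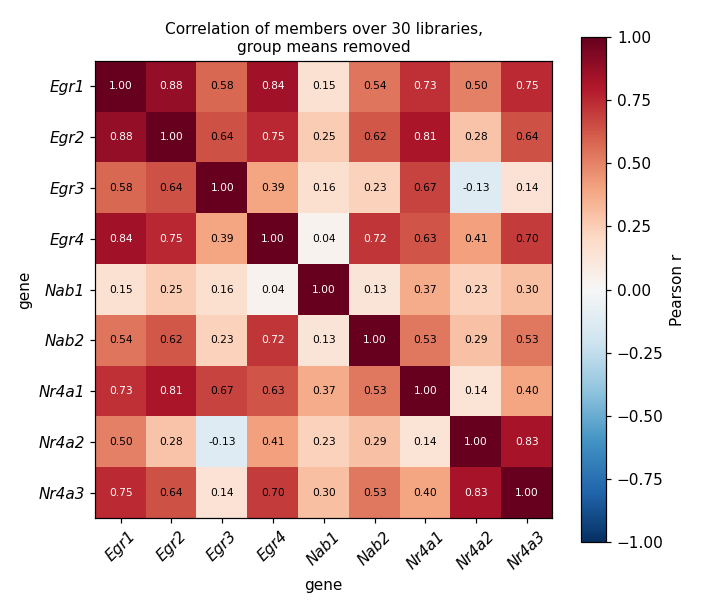
Pearson correlation (colour and printed value) of log2 normalized counts between the 9 genes over 30 libraries with group means subtracted. Egr1, Egr2, Egr4 and Nr4a1 form a block of 0.63 to 0.88, Nr4a2 pairs with Nr4a3 at 0.83, and Nab1 has pale cells throughout. Nr4a3 also has 0.64 to 0.75 with Egr1, Egr2 and Egr4.

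Nr4a2 and Nr4a3 varied with regional markers and were called under neither drug. Nr4a2 ranged over 445 to 1132 under fluoxetine, 489.9 to 1243 under lithium, 401 to 1138 in HT vehicle and 394 to 1209.9 in WT vehicle libraries. Its SD was a large share of its mean in each, for example 848 ± 287 (SD, n = 8) under fluoxetine, 798 ± 280.4 in HT vehicle and 849.6 ± 352 in WT vehicle libraries. With group means subtracted, Nr4a2 correlated over the 30 libraries with the mean log2 level of the 7 claustrum and layer 6b markers (Ntng2, Cplx3, Ctgf, Nxph4, Synpr, Gnb4 and Oprk1). These summed to 5200.4 to 7793 under fluoxetine, 6767 to 9656 under lithium, 6388 to 9513 in HT vehicle and 5473 to 7777 in WT vehicle, and none was at 0 in a library. Pearson's r was 0.933 and Spearman's rho 0.911 (permutation p = 1e-05, the smallest possible, adjusted p = 0.00045 and 0.0003 over 90 relations), and r was 0.926 without the 2 libraries farthest from the marker median. Before centring, no Nr4a2 count lay between 606 and 807. Of the 30 libraries 11 lay below this gap and 19 above it, with libraries of all 4 conditions on both sides. Within each side, without centring, r with these markers was lower, at 0.68 below the gap and 0.69 above it. Without 2 libraries of each side it was 0.58 and 0.53. Nr4a3 showed r of 0.69 and rho of 0.695 with the same markers (permutation p = 0.0001 and 0.00011, adjusted p = 0.0018 and 0.00195, r 0.711 without 2). Nr4a1 did not follow them (r 0.00133, adjusted permutation p = 0.995).

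The same 2 genes also followed other lists that vary between libraries. Nr4a2 had r of 0.889 with 5 oligodendrocyte markers and 0.867 with 16 striatal neuron markers, and Nr4a3 had 0.721 and 0.652 (rho 0.873, 0.881, 0.733 and 0.672, adjusted permutation p of 0.0003 to 0.0042, and r without 2 libraries of 0.637 to 0.906). Negative relations also passed by both measures. Nr4a2 had r of -0.614 with 5 microglia markers (rho -0.597, adjusted permutation p = 0.0045 and 0.0129, r -0.554 without 2), -0.531 with 6 endothelial markers (rho -0.542, adjusted permutation p = 0.0283 and 0.0319, r -0.454 without 2) and -0.527 with 6 meningeal fibroblast markers (rho -0.519, adjusted permutation p = 0.03 and 0.0427, r -0.505 without 2). Nr4a3 had r of -0.596 with the endothelial markers (rho -0.562, adjusted permutation p = 0.0283 and 0.0427, r -0.501 without 2). Which tissue carried the Nr4a2 transcripts cannot be told apart from bulk values. With the claustrum and layer 6b level as a covariate, chosen after the data were seen, the standard error of the Nr4a2 contrast under fluoxetine was 0.113 (0.318 without it). Its log2 fold change was then 0.22 under fluoxetine and 0.28 under lithium, and that of Nr4a3 0.32 and 0.14. None of these was called (limma adjusted p of 0.758 to 1). In this limma fit Egr4 (adjusted p = 0.0184) and Nr4a1 (0.0475) under fluoxetine and Egr2 (0.0231) and Nr4a1 (0.00177) under lithium were called. Egr4 was the only Egr gene that passed with a marker list by both measures, with r of -0.617 and rho of -0.63 against 5 astrocyte markers (adjusted permutation p = 0.0153 and 0.0196, r -0.569 without 2). Those markers had a median log2 fold change of 0.03 under fluoxetine and 0.04 under lithium against HT vehicle, with 0 of 5 called and none at 0 in a library. They summed to 25965 to 30739 under fluoxetine, 25136 to 34820.0 under lithium and 24298 to 33613 in HT vehicle, and their part in the Egr4 result was not tested.

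**Figure D5:**
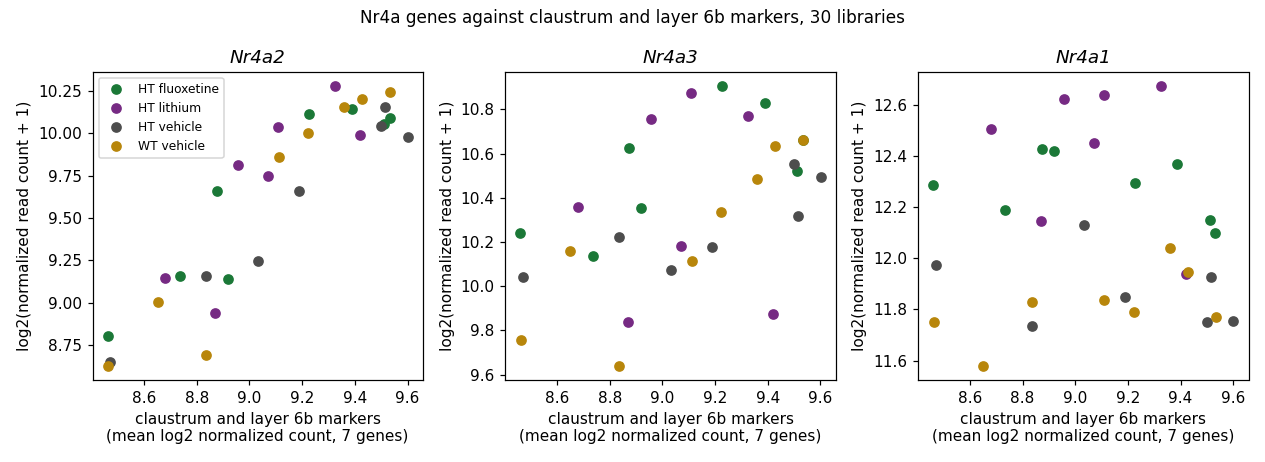
Log2 normalized count of Nr4a2, Nr4a3 and Nr4a1 (vertical axes) against the mean log2 normalized count of 7 claustrum and layer 6b markers (horizontal axes) in 30 libraries, coloured by condition. Nr4a2 climbs along the marker level in all 4 conditions with a gap between 606 and 807 normalized reads, and Nr4a3 does so more loosely. The plotted values are not centred. With group means subtracted, r of Nr4a1 with these markers was 0.00133.

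Neither co-repressor gene was called in any comparison averaged over the sexes. Nab1 averaged 761 ± 33.5 (SD, n = 8) under fluoxetine, 775 ± 60.4 (SD, n = 7) under lithium, 766 ± 66.5 (SD, n = 7) among HT vehicle libraries and 741 ± 39.8 (SD, n = 8) among WT vehicle libraries. The 95% intervals of its log2 fold change against HT vehicle were -0.11 to 0.09 under fluoxetine and -0.10 to 0.10 under lithium, the narrowest of the 9 genes in both. Nab2 averaged 1612 ± 117 (SD, n = 8), 1513 ± 261 (SD, n = 7), 1478 ± 185 (SD, n = 7) and 1392 ± 104 (SD, n = 8) in the same conditions. Its log2 fold change against WT vehicle was 0.21 under fluoxetine (limma adjusted p = 0.111), with 6 of 8 libraries above all WT libraries, and 0.08 under lithium (0.554).

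Among 47 other immediate early genes tested (48 listed), 4 were called higher under fluoxetine and 8 under lithium against HT vehicle, and 0 were lower under either. The shares called higher over all genes tested were 0.0357% and 0.0892%. The 6 genes that make up the fluoxetine share include these 4 as well as Egr4 and Nr4a1. This list was chosen with earlier results of these data known, so its counts are a description and not independent support. Their median log2 fold changes were 0.21 under fluoxetine (42 of 47 positive) and 0.19 under lithium (40 of 47 positive). The called genes under fluoxetine were Npas4, an activity-dependent bHLH-PAS factor (1419 ± 90.2 under fluoxetine and 737 ± 179 under HT vehicle, SD, n = 8 and 7; log2 fold change 1.01, limma adjusted p = 5.3e-06), Btg2 (0.80), Fos (0.78) and Fosb (0.91). Under lithium Npas4 had a log2 fold change of 1.21 (1712 ± 405 under lithium, SD, n = 7), Btg2 of 1.03, Fos of 0.91 and Dusp1, a phosphatase of MAP kinases, of 0.52. Thus Npas4, Btg2 and Fos changed by more than any of the 9 Egr, Nab and Nr4a genes under each drug. Between HT and WT vehicle 0 of the 47 were called (2 with an unadjusted p under 0.05), against 0.731% and 6.6% of all genes tested.

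Of 31 genes of the kinase, CREB and SRF pathways that act on these promoters, 0 were called under fluoxetine and 0 under lithium against HT vehicle by limma (0 and 6 with an unadjusted p under 0.05, against 2.63% and 5.72% of all genes tested). Against WT vehicle 3 of the 31, and 0.577% of all genes tested, were called lower in lithium-treated HT cortex, namely Crtc1, a CREB co-activator (log2 fold change -0.14), the kinase gene Rps6ka2 (-0.17) and the SRF co-activator gene Mrtfa (-0.17). Of 12 Egr targets and partners, 0 were called in either drug against HT vehicle by limma (1 and 1 with an unadjusted p under 0.05). Of all genes tested, 0.0357% and 0.0892% were called higher under fluoxetine and lithium, and 2.63% and 5.72% had an unadjusted p under 0.05. Arc, a synaptic regulator with Egr sites in its enhancer, was called against WT vehicle, at 9702 ± 1094 under fluoxetine, 10260 ± 2831 under lithium and 7010 ± 789 in WT vehicle (log2 fold changes 0.47 and 0.47, limma adjusted p = 0.0221 and 0.0256). Arc also belongs to the list of other immediate early genes, so it was counted in both lists. Against WT vehicle, 1.24% and 1.4% of all genes tested were called higher under fluoxetine and lithium. Of 12 Nr4a partners and co-regulators 0 were called in any comparison by limma. Between HT and WT vehicle, 0.731% of all genes tested were called in either direction.

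By group-centred Pearson correlation over the 30 libraries, the genes most like Egr4 were Junb (0.911), Dexi (0.856) and Cnih2 (0.839), and those most like Egr1 were Syt12 (0.848), Arl4d (0.847) and Junb (0.846). Nr4a1 was most like Midn (0.899), Fos (0.873) and Nr2c2ap (0.736). Nr4a2 was most like Six3 (0.943), itself 1 of the striatal markers, Stxbp2 (0.937) and Cryab (0.935). The closest to Nab1 were Plekha2 (0.794), Tnfaip6 (0.774) and Tmem168 (0.766). These genes were picked as the highest of all genes tested, so the values describe likeness and are not tests.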

How the data were processed

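Bulk poly(A) RNA was sequenced from 30 prefrontal cortex libraries with the TruSeq Stranded mRNA kit, per the labels' protocols. The submitters' processing notes name Salmon 0.11.2, R 3.6.0, DESeq2 1.19.11 and the build GRCm38, and the sources used here do not give how strand was used in counting. The deposited matrix holds a signal per gene and library, which is the gene's count divided by 1 size factor per library by the authors. Whole reads were recovered by dividing by the step between values, and 100% of values came out whole within 0.01. In 2 columns the step was within 0.5% of 1. Library totals were 23771758 to 34307061 reads.

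The deposited signal was analysed as log2(value + 1), so fold changes understate those of low genes. Genes with a mean of at least 10 were kept, 16824 of 18240, of which 18227 had a GENCODE M21 symbol. Limma 3.58.1 (R 4.3.3, trend and robust moderation) was fitted to 8 means of condition and sex with 22 residual degrees of freedom, contrasts averaged the sexes, and p-values were adjusted by Benjamini-Hochberg over all genes tested. A call is an adjusted p under 0.05. EdgeR 4.0.16 (quasi-likelihood) and DESeq2 1.42.0 on the recovered reads, other pseudocounts (0.5 and 5), filters, fits and marker covariates were alternatives, and the limma script was tested on simulated data. Within groups, 42 pairs of libraries differed by a chi-square of 4.79 to 31.9 per degree of freedom, so no library was counted as a repeat of another.

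All 9 genes are named, with up to 4 called genes of each context list by smallest p and, for 5 of the 9, the 3 genes of highest correlation, leaving out predicted genes. The members and lists were chosen with earlier results of these data known. Promoter sequences are from RefSeq, build GRCm38.p6.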

Additional observations from a re-analysis of the deposited data

Results flagged for a closer look

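In 2 groups a single library stood apart from the others of its condition and sex by the Dixon criterion. Egr2 in HT fluoxetine female replicate 1 was 476.5 normalized reads, with the other 3 females at 583 to 599, and the gap took a share of 0.87 of the group's range. Nab1 in HT vehicle female replicate 1 was 883.5 normalized reads, with the other 3 females at 696 to 719, and the gap took a share of 0.874 of the range. Of 54 groups tested these were the 2 found, and chance flags about 1 in 20 groups, or 2.7 of 54.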

How the results depend on the processing

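With 1 library left out, the number of the 9 genes called was 0 to 1 for fluoxetine against HT vehicle (2 with all libraries), 1 to 2 for lithium against HT vehicle (2 with all), and 2 to 4 for fluoxetine against WT vehicle (4 with all). The fluoxetine count against HT vehicle was 0 with the library-name number as a replicate block, 1 with striatal and olfactory bulb covariates, 1 when lithium male 4 of the HT mice and vehicle female 1 of the HT mice were both left out, and 0 in females alone and in males alone. The lithium count against HT vehicle was 0 with only the 2 conditions in the fit, 1 given the striatal and olfactory bulb covariates and 0 in females alone. Against WT vehicle the fluoxetine count was 1 in females alone and 1 in males alone, and the lithium count (3 with all) was 1 with only the 2 conditions in the fit and 0 in females alone. The causes of these changes were not tested. The single-sex contrasts and left-out fits also rest on fewer libraries.

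Of 42 pairs of libraries of the same sex and title number, 14 had a correlation above 0.1, over a range of -0.43 to 0.446. Pairs with different numbers were not compared, so these values cannot decide if the numbers pair the libraries. With the title number as a replicate block, 0 genes were called between HT and WT vehicle, 2 under fluoxetine and 2 under lithium against HT vehicle, and 3 and 2 against WT vehicle. With the library-name block, chosen after seeing the data, the limma adjusted p under fluoxetine was 0.0894 for Egr4 and 0.0602 for Nr4a1, with log2 fold changes of 0.56 and 0.43.

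No called log2 fold change turned its sign. Some log2 fold changes that were not called did turn under other settings. Between HT and WT vehicle these were Nr4a3 (-0.00781) with the claustrum covariate, Nr4a2 (0.00944) without both libraries named above, Egr2 (0.0142) and Egr4 (0.00225) in females, and Egr1 (-0.00136) and Nr4a2 (0.244) in males. Under fluoxetine it was Nab1 (0.0287) without both libraries. Under lithium they were Nab1 with TMM scaling (0.00049), with the claustrum covariate (0.00461), without both libraries (0.0303) and in males (0.0521). Nab2 under lithium turned with the title replicate block (0.014), the striatal and olfactory bulb covariates (0.00782), without both libraries (0.00981) and in males (0.0826), as did Nr4a3 in females (-0.0501) and Nr4a2 in males (-0.0753). For fluoxetine against lithium it was Egr4 in males (-0.0507). With 1 library left out, the ranges between HT and WT vehicle were -0.0133 to 0.0558 for Egr1, -0.0646 to 0.02 for Egr2, -0.0749 to 0.00894 for Egr4, -0.18 to 0.135 for Nr4a2 and -0.0358 to 0.115 for Nr4a3. Under fluoxetine they were -0.0287 to 0.0287 for Nab1 and -0.0865 to 0.186 for Nr4a2. Under lithium they were -0.0324 to 0.0392 for Nab1, -0.0852 to 0.0433 for Nab2, -0.0209 to 0.33 for Nr4a2 and -0.0785 to 0.155 for Nr4a3, and for fluoxetine against lithium -0.283 to 0.00564 for Egr2. Of 565 gene values with 1 library left out, 461 kept their direction and side of the threshold, 60 lost a call, 3 gained one and 41 turned; of 570 under other settings the numbers were 514, 30, 8 and 18. For Nab1, with 626 to 869 reads, counting error alone gives a coefficient of variation of 3.39% to 4%. That between libraries of a condition was 4.4% (fluoxetine) to 8.68% (HT vehicle). Counting error was thus close to the smallest of these spreads and below the largest, and its part in them was not tested.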
